A study of Mus musculus with 6 samples.

Results

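Dendritic cells of the mouse lung at postnatal day 21 were examined in single-cell RNA counts. The members were the cells that the authors' deposited annotation named Dendritic Cells. There were 498 of them among 55882 cells with a class in 6 libraries, and all 498 came from the 4 libraries of day 21. The lungs came from wild-type C57BL/6N mice, and the study asked whether sex shapes the recovery of the lung from neonatal hyperoxia. Each library was made from dissociated, live-sorted cells of a pool of 3 mice of 1 sex. The female and male room air groups were kept at 21% oxygen, and 1 library of each sex was also made from room air mice at day 1. The female and male hyperoxia groups were exposed to 95% oxygen from day 1 to day 5, were then moved to room air and were killed at day 21. There was 1 library for each sex and treatment, so no group had a replicate, and the spread within a group could not be measured.

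Dendritic cells take up antigen, carry it to lymph nodes and present it to T cells on class II molecules of the major histocompatibility complex (MHC). Conventional type 1 cells (cDC1) depend on the transcription factors Irf8 and Batf3 and present antigen to CD8 T cells, while conventional type 2 cells (cDC2) depend in part on Irf4 and present mainly to CD4 T cells. Either kind can mature, and mature cells gain the lymph node homing receptor Ccr7 together with Fscn1, Ccl22 and other genes of migration and T cell contact.

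The class held 234 cells in female room air, 107 in male room air, 143 in female hyperoxia and 14 in male hyperoxia. The male hyperoxia library was therefore far below the 50 cells at which a library was described by itself, and every value of that library rests on 14 cells and 185867 unique molecular identifiers (UMIs, counted transcripts). The median dendritic cell held 20968, 21456, 20312 and 15888 UMIs in female room air, male room air, female hyperoxia and male hyperoxia, against 9703, 9288, 9310 and 8329 over all cells with a class. Scrublet called 6, 1, 3 and 2 of the members doublets. No dendritic barcode was shared between libraries, while 220 of 46378 barcodes of day 21 were. In the female hyperoxia library 45 of 143 members held neither an Xist UMI nor a UMI of a Y-linked gene, against 3 of 234 in female room air. The hyperoxia comparison is also given without the Xist-free cells of female hyperoxia, with the other libraries unchanged.

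The defining markers were where the label puts them. Levels are given in CPM, the count of a gene in the summed cells scaled to a fixed UMI total. Flt3, the receptor for the dendritic growth factor Flt3 ligand, was at 189, 197, 186 and 226 CPM in female room air, male room air, female hyperoxia and male hyperoxia. In room air this was the highest level among 24 classes, and the next class, classical monocytes, was at 24.2 CPM. H2-Aa, the alpha chain of the class II molecule I-A, was at 8492, 8762, 8542 and 5477 CPM, and the next class reached 3308 CPM in room air. Xcr1, a chemokine receptor of cDC1, was at 59.8, 89.0, 59.9 and 69.9 CPM, and no other class was above 0.299 CPM in room air. Cd209a, a lectin of cDC2, was at 690, 480, 627 and 167 CPM, and the next class was at 9.87 CPM. The 14 male hyperoxia cells were thus low for H2-Aa and Cd209a but not for Flt3. Over the lists, 7 of 10 general dendritic markers and 10 of 12 cDC1 markers were highest in this class in room air. So were 5 of 12 cDC2 markers and 2 of 14 markers of mature cells. None of the 10 markers of plasmacytoid dendritic cells was, and Siglech, which defines these cells, stood at 3.28, 5.10, 4.61 and 0 CPM. Zbtb46, a transcription factor of conventional dendritic cells that endothelial cells also express, had rank 3, with aerocyte capillary cells (aCap) at 182 CPM against 139 CPM here.

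The promoters of class II genes carry the X and Y boxes on which Ciita, the class II transactivator, assembles its complex, and the Y box holds an inverted CCAAT sequence. The 250 bases before the start site are shown for H2-Aa (chr17:34287824-34288073, minus strand) and H2-Eb1 (chr17:34305617-34305866, plus strand), from RefSeq on GRCm38.p6, because these class II genes are among the defining genes of the class and H2-Eb1 was at 7503, 7790, 7298 and 4702 CPM in female room air, male room air, female hyperoxia and male hyperoxia. The capitals mark GATTGG, the inverted CCAAT core, or its reverse complement CCAATC.
H2-Aa: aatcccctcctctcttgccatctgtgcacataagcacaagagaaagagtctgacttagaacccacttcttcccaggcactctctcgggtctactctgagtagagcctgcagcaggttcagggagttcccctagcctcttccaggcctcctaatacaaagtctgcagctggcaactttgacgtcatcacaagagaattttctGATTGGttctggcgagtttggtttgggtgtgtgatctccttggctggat
H2-Eb1: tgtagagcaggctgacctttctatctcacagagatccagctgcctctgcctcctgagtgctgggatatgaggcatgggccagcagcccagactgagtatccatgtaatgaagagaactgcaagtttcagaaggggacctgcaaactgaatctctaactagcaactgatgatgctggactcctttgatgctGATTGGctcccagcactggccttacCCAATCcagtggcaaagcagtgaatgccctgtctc
H2-Aa had 1 match in the sense direction, 49 bases before the start site. H2-Eb1 had 1 sense match at 60 bases and 1 antisense match at 35 bases. Of 32817 promoters of the same length, 4772 (14.5%) held the 6 letters on either strand, so a match is a description and not a site.

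The members fell into subsets that differ in their marker transcripts but share some of them: the median cell held 6845 CPM of cDC1 markers in cDC1 and 1076 CPM in cDC2. A cell was put with the mature cells when it held at least 100 UMIs of 10 mature markers. Otherwise it went to cDC1 or cDC2 by which list held more of its marker UMIs. This gave 130 cDC1, 353 cDC2 and 13 mature cells, with 2 cells too poor in markers to place. The mature cells stood clear of the rest, since their sums began at 133 UMIs and the next cell held 48. Of the 498 cells, 38 had a cDC1 share of marker UMIs from 0.3 to 0.7. Most of these lay at 0.3 to 0.4, on the cDC2 side of the boundary. Clusters built on 2000 variable genes put 488 of 498 cells in the same subset. Several clusters led with genes of other cells, such as Fn1, Retnla, C1qa and S100a8 in cluster 1 (101 cells), Cd3g and Cd7 in cluster 2 (98 cells) and Cldn5 and Cd93 in cluster 3 (57 cells, 6 of them called doublets). Subsets were therefore compared by markers, and shares by clusters are given only beside those by markers. The median summed macrophage marker level per cell was 169 CPM in cDC1, 871 CPM in cDC2 and 75.4 CPM in mature cells, and the median T cell marker level was 0 in each.

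These values describe the subsets with the genes that chose them and carry no test. In cDC1, Xcr1 was at 253 CPM, Clec9a, a receptor for dead cells, at 378 CPM, Irf8 at 1591 CPM and Tlr3, a receptor for double-stranded RNA, at 180 CPM. The same genes were at 0.140, 1.54, 2.66 and 12.45 CPM in cDC2. In cDC2, Cd209a was at 865 CPM, the lectin Mgl2 at 1477 CPM, the inhibitory receptor Sirpa at 237 CPM and Irf4 at 95.7 CPM. In cDC1 they were at 6.50, 45.9, 5.73 and 3.44 CPM. The mature cells had 1733 CPM of Ccr7, 1820 CPM of Fscn1, which bundles actin, and 6352 CPM of Ccl22, a chemokine for Ccr4-bearing T cells. Genes outside the partition also differed in level: Cd40 was at 272 CPM in mature cells and at 16.8 and 16.2 CPM in cDC1 and cDC2. Aldh1a2, which makes retinoic acid, was at 790 CPM in mature cells against 1.91 and 14.97 CPM. Ciita was at 65.3 CPM in mature cells, below 292 CPM in cDC1 and 346 CPM in cDC2, while H2-Aa was still at 5450 CPM there.

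**Figure D1:**
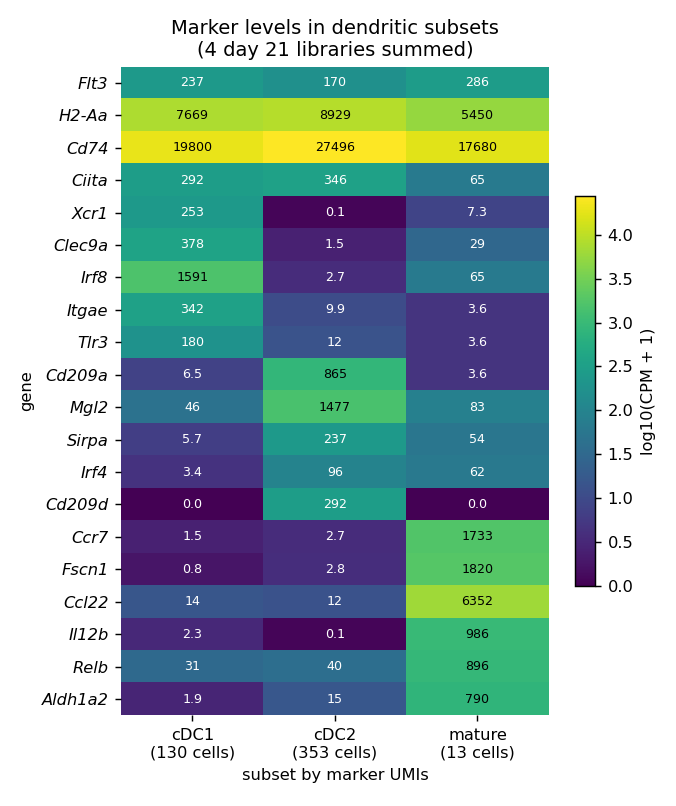
Levels of 20 markers (CPM, printed in each tile, colour on a log10 scale of CPM + 1) in cDC1, cDC2 and mature cells of the class, with the 4 day 21 libraries summed. Flt3 and H2-Aa are present in all columns, whereas Xcr1 (253 CPM in cDC1) and Cd209a (865 CPM in cDC2) each mark 1 column, and Ccr7 (1733 CPM) marks mature cells.

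Part of the class was dividing. With at least 2 UMIs of Mki67 and Top2a taken as cycling, 50 of 498 members (10.0%) were cycling. The share was 13.7% in female room air, 7.48% in male room air, 6.29% in female hyperoxia and 7.14% in male hyperoxia, and the exact binomial 95% interval of the first, 9.545% to 18.75%, overlapped those of the others. It was 10.8% of cDC1 and 10.2% of cDC2. None of the 13 mature cells was cycling, which allows a share of up to 24.7%.

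The class was a smaller share of cells after hyperoxia in both sexes. It made up 2.75% of cells with a class in female room air (exact binomial 95% interval 2.41% to 3.12%) and 1.71% in female hyperoxia (1.44% to 2.01%). In males it was 1.51% in room air (1.24% to 1.83%) and 0.154% in hyperoxia (0.0840% to 0.258%). The differences were -1.04 percentage points in females (95% half-width 0.445) and -1.36 in males (0.296). Within a sex, with 1 library a group, there is no test of treatment, and across the sexes an exact permutation test over 2 against 2 libraries cannot go below p = 0.333. All intervals cover counting error only.

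This difference depended on which barcodes had a class. The deposited matrices also hold barcodes without one. A marker rule was applied to them. It asked for at least 4 of 12 dendritic genes detected and at least 1 UMI of Flt3 or Zbtb46. Depth, gene number and mitochondrial share had to lie within the range of cells with a class. Other-lineage markers had to sum to no more than the 95th percentile of the members. These were markers of B cells, T cells, neutrophils, basophils, endothelium, epithelium and mesenchyme. Monocyte, macrophage, natural killer cell and plasmacytoid markers were not screened. The rule also left out barcodes that Scrublet called doublets. It found 74 barcodes in female room air, 60 in male room air, 113 in female hyperoxia and 265 in male hyperoxia. The same rule was met by 212 of 234, 97 of 107, 132 of 143 and 7 of 14 members. Among cells of other classes it was met by 19 in female room air, 8 in male room air, 17 in female hyperoxia and 5 in male hyperoxia. At day 1, where Scrublet was not run, it was met by no barcode without a class and by 29 (female) and 30 (male) cells of other classes. The male hyperoxia library thus held 265 such barcodes beside its 14 members. With them the share was 3.59% in female room air, 2.34% in male room air, 3.02% in female hyperoxia and 2.97% in male hyperoxia. The difference was then -0.566 percentage points in females (half-width 0.536) and +0.632 in males (half-width 0.491), so that in males the direction turned. These barcodes were not shallow: their medians were 23690, 24032, 24705 and 18730 UMIs. Why they carry no class was not given in the sources used here.

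**Figure D2:**
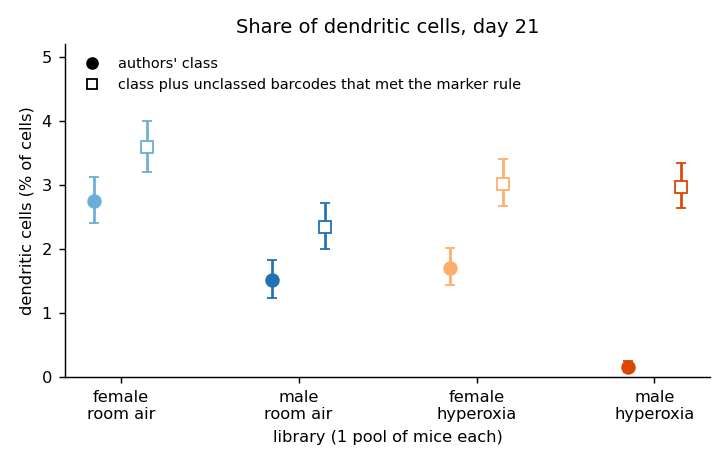
Share of dendritic cells (percent of cells, exact binomial 95% intervals) in the 4 day 21 libraries, for the authors' class (filled) and with the barcodes without a class that met the marker rule (open). The male hyperoxia library moves from 0.154% to 2.97%, while the other 3 libraries move by less.

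The barcodes without a class were not the same mixture as the class. Mature cells were 0 of 234 members in female room air, 1 of 107 in male room air, 11 of 143 in female hyperoxia and 1 of 14 in male hyperoxia. Among the barcodes without a class they were 15 of 74, 9 of 60, 9 of 113 and 16 of 265. Of the mature cells found in these sets, nearly all of those in room air were thus outside the class. In female hyperoxia they were on both sides. Cells of other classes were not searched for mature cells. Ccr7, Fscn1 and Ccl22 were among the 12 genes of the marker rule, so the rule itself admits mature cells. In both sets together mature cells were 4.87% (15 of 308), 5.99% (10 of 167), 7.81% (20 of 256) and 6.09% (17 of 279), with differences of 2.94 points in females (half-width 4.07) and 0.105 in males (half-width 4.56). The share of cDC1 was 23.7%, 41.3%, 26.95% and 28.0% in the same order. Its difference was 3.25 points in females (half-width 7.22) and -13.4 in males (half-width 9.14), with male room air as the high library. In the class alone the clusters gave +14.2 points in females (half-width 9.32) and -22.2 in males (half-width 20.5), and the marker partition gave +10.4 (half-width 9.08) and -14.1 (half-width 23.3, so that the interval covers 0). Among the barcodes without a class alone the difference was -13.5 points in females (half-width 13.4) and -23.4 in males (half-width 13.8). The female direction thus differed between the class and the barcodes outside it. Summed over 10 plasmacytoid markers, the barcodes without a class held 1251, 1630, 826 and 409 CPM in the same library order. In the class these sums were 281, 255, 305 and 382 CPM. The partition had no plasmacytoid group and Irf8 is on its cDC1 list, so any such cells were placed in another subset. Their part in the cDC1 shares was not tested. Cycling cells were 16.6%, 10.2%, 13.3% and 10.4% of the larger set in female room air, male room air, female hyperoxia and male hyperoxia, so that female hyperoxia was higher there than in the class (6.29%).

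**Figure D3:**
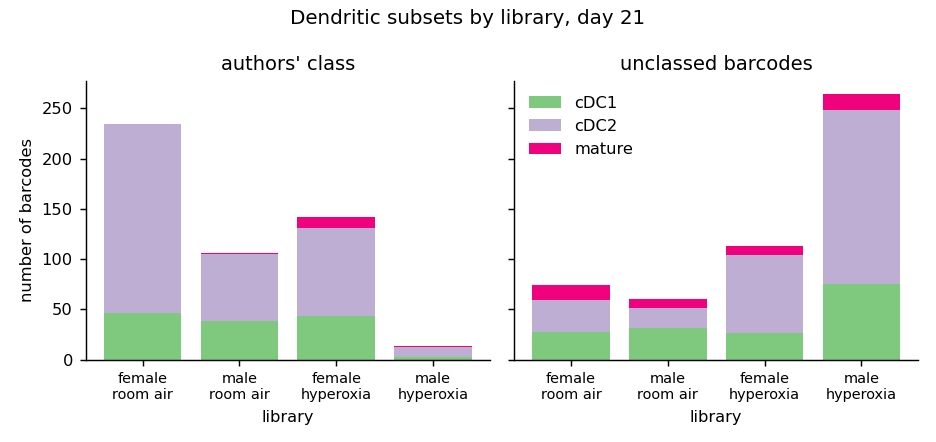
Number of cDC1, cDC2 and mature cells by library in the authors' class (left) and among the barcodes without a class that met the marker rule (right). Mature cells of the room air libraries (15 and 9) lie almost wholly on the right, and so do 265 of 279 dendritic barcodes of male hyperoxia.

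Within the class, hyperoxia against room air was tested on UMI counts summed per library with edgeR's quasi-likelihood test, with sex as a covariate and 1 residual degree of freedom, so male and female pools stand in for replicates. Of 10378 genes tested, 198 were called higher after hyperoxia (1.91% of genes tested) and 7 lower (0.0675%) at a Benjamini-Hochberg adjusted p under 0.05. The calls were led by mature markers. Fscn1 was at 1.84 and 4.17 CPM in female and male room air and at 152 and 414 CPM in female and male hyperoxia. Both hyperoxia libraries were above both room air libraries, and its log2 change was 6.40 (SE 0.33, adjusted p = 1.18e-12). Ccl22 was at 7.17 and 31.5 CPM in room air and at 594 and 527 CPM after hyperoxia (log2 change 5.14, SE 0.41). Ccr7 was at 0.614 and 35.2 CPM in room air and 129 and 312 CPM after hyperoxia (4.45, SE 0.50). Il12b, a subunit of interleukin-12, had no UMI in female room air and was at 30.1, 56.0 and 301 CPM in male room air, female hyperoxia and male hyperoxia. Male hyperoxia held 77 Fscn1, 58 Ccr7 and 56 Il12b UMIs and 1 mature member. Over all 4 libraries, the cDC1 and cDC2 members held 2 and 20 UMIs of Fscn1, 4 and 19 of Ccr7 and 6 and 1 of Il12b. Most UMIs of these 3 genes in male hyperoxia were thus in that 1 cell.

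Of the 14 mature markers, 13 were called higher, with a median log2 change of 3.79 against -0.02 over all genes tested, and Cd200 missed the threshold (1.55, adjusted p = 0.193). Relb, the nuclear factor of mature dendritic cells, was among the 13. Cd274 and Pdcd1lg2, the ligands of the inhibitory receptor PD-1, and Nr4a3, a nuclear receptor of migrating dendritic cells, were called too. Of the other named genes, Mreg, Rgs1, Gadd45b, Zmynd15, Zc3h12c, Lima1, Tspan3 and Dusp2 were called, with log2 changes from 1.99 (Dusp2) to 4.04 (Mreg). Of the 198 higher calls, 105 were at least 4-fold higher in mature cells than in the other members. Of the 13 mature members, 11 were in female hyperoxia, 1 in male hyperoxia and 1 in male room air, so this overlap is partly built in. The same share was not counted over all genes tested, so the 105 is a description. Retnla and Ifi27l2a were the named genes called lower, and the next by p-value, which were not called, were Hacd4 (log2 change -1.24, adjusted p = 0.0623), Wfdc17 (-1.10), Itgam (-0.92) and Adgre1 (-0.89). When the 13 mature cells were left out, 67 of 10244 genes (0.654%) were called, all of them among the 205, and none of the 10 mature markers still tested was called. The cells left out were chosen by their UMIs of these markers, so a loss is partly built in, and the list median was still 1.27, with Ccr7 at 3.54 (adjusted p = 0.0762) and Ccl22 at 2.94 (adjusted p = 0.0519).

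RNA of other cells moved with the same comparison. Of the 205 calls, 144 were for genes with over 4 times the CPM in another lineage of the lung, against 1438 of all 10378 genes tested (13.9%). So were 61 of the 67 calls without mature cells, against 1387 of the 10244 genes tested there (13.5%). Of 7 endothelial markers tested, 4 were called higher (Cldn5, Cdh5, Gpihbp1 and Plvap). Plvap, a protein of capillary fenestrae, was at 1.84 and 2.78 CPM in room air and 23.8 and 96.8 CPM after hyperoxia (log2 change 4.23, SE 0.56, adjusted p = 2.17e-05). Summed over 8 endothelial markers the level was 71.7, 83.0, 173 and 586 CPM in female room air, male room air, female hyperoxia and male hyperoxia, and over 8 T cell markers 15.4, 14.4, 11.35 and 296 CPM. Of 12 macrophage markers tested 3 were called higher (C1qa, C1qc and Fabp4), with summed levels of 844, 907, 754 and 2292 CPM. The last of these sums includes 131 UMIs of Chil3, of which 127 were in 1 cell. Of 4 neutrophil markers 2 were called lower (S100a8 and S100a9), with summed levels of 596, 45.4, 30.9 and 102 CPM. Their part in the calls was not tested.

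The number of calls moved with the libraries fitted. With 1 library left out, the sex covariate cannot be kept and 1 arm is a lone library assumed to vary like the other arm, so such counts change with the model as well as with the library. Without either room air library edgeR called 0 genes, with 227 (female left out) and 222 (male left out) at an unadjusted p under 0.05, against 671 with all 4. The log2 change of Fscn1 was then 5.81 (adjusted p = 0.0986) without female room air and 7.04 (adjusted p = 1.00) without male room air. Other mature markers moved more. In the same order Ccr7 was at 2.39 and 8.20, Il12b at 2.17 and 11.53 and Ccl22 at 4.04 and 6.25. With equal numbers of cells per library (14, drawn at random in a single draw) the log2 changes were 0.27 for Ccr7, 0.38 for Il12b, 1.33 for Ccl22 and 0.55 for Mreg, none of them called. Mature members were few, so these values depend on which cells were drawn. Of the named genes fitted with equal numbers of cells, 10 were labelled weaker, 10 the same and 1 stronger. Without male hyperoxia 245 genes were called, and without female hyperoxia 327. Without the Xist-free cells it called 315, and DESeq2 called 108. With the barcodes without a class included, edgeR called 6 of 11654 genes higher (0.0515%) and 4 lower (0.0343%), 664 had an unadjusted p under 0.05, and 7 of the 205 calls were among these 10. Without 1 library at a time 18 to 157 genes were called in the larger set, with the highest number without male room air.

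Most mature markers did not pass the test in this larger set, but Ccr7, Fscn1 and Ccl22 are among the genes of the rule that admitted its barcodes, so their values there are not independent of the choice of cells. Fscn1 was at 105, 122, 137 and 130 CPM in female room air, male room air, female hyperoxia and male hyperoxia (fitted log2 change 0.23, SE 0.11). Ccr7 was at 90.5, 160, 132 and 148 CPM (0.20, SE 0.16), with male room air the highest. The median over the 14 mature markers was 0.28, and Ccl17 was the 1 marker called. In the cDC2 of the larger set, where cells with many mature transcripts had been set aside, 6 of 11 mature markers were called higher by edgeR. These were Ccr7, Fscn1, Ccl17, Cacnb3, Socs2 and Ccl5, against 0.968% of all genes tested there called higher. Ccr7 was at 0.633, 17.2, 15.03 and 19.7 CPM there. Of these 6, DESeq2 called Ccl17.

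**Figure D4:**
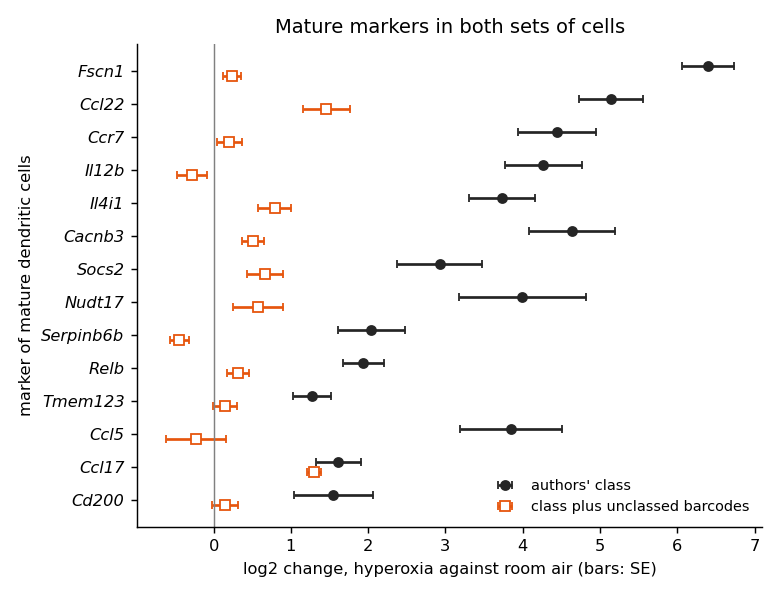
Log2 change (bars: standard error) of the 14 mature markers, hyperoxia against room air, in the authors' class (filled) and with barcodes without a class (open), from edgeR fits over 4 libraries. Fscn1 goes from 6.40 to 0.23 and Ccr7 from 4.45 to 0.20, while Ccl17 is at 1.61 and 1.29. Ccr7, Fscn1 and Ccl22 were used to admit the barcodes without a class.

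Ccl17, a chemokine that draws Ccr4-bearing T cells (chr8:94810453-94812036, plus strand, GRCm38), was called higher after hyperoxia in the class, in the larger set and in cDC2, but in the class without its mature cells the log2 change went from 1.61 to 0.81 and was not called (adjusted p = 0.466). In the larger set it was at 418 and 286 CPM in female and male room air and at 972 and 750 CPM in female and male hyperoxia. Both hyperoxia libraries were above both room air libraries (log2 change 1.29, SE 0.09, edgeR adjusted p = 0.00225, DESeq2 adjusted p = 5.67e-21). The transcript was found in 60.4%, 44.9%, 70.7% and 71.7% of the cells, and the cell with most of it held 7.60% to 12.5% of a library's UMIs. In cDC2 it was at 458, 326, 897 and 831 CPM (log2 change 1.13, SE 0.09, edgeR adjusted p = 2.38e-25). Cells with at least 100 UMIs of 10 mature markers are left out of that subset, but Ccr7 and other mature markers were still called higher in it. In cDC1 Ccl17 was at 78.2, 70.8, 142 and 224 CPM (1.29, SE 0.19, adjusted p = 0.0901), which missed the threshold.

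The cDC2 of both sets (220, 87, 166 and 183 cells) gave 105 higher calls of 10844 genes (0.968%) and 57 lower calls (0.526%) with edgeR, and DESeq2 called 7 genes, all among those 162. The 7 were Ccl17, Fkbp5, Chil3 and Atp6v0d2 (higher) and Retnla, Fn1 and Lyz1 (lower). These cDC2 included 32, 20, 78 and 173 barcodes without a class in female room air, male room air, female hyperoxia and male hyperoxia. The cDC1 of both sets included 27, 31, 26 and 75. The share of such barcodes was thus higher in both hyperoxia libraries in cDC2, and in male hyperoxia in cDC1. Its part in the calls was not tested. Of the 162 calls, 88 were for genes with over 4 times the CPM in another lineage, against 1543 of all 10844 genes tested. Markers of other cells were among the calls: 3 of 4 neutrophil markers (S100a8, S100a9 and Retnlg) and 2 of 11 monocyte markers (Ly6c2 and Fn1) were lower, 4 of 13 macrophage markers were higher (Mrc1, Chil3, Ear1 and Marco) and 3 lower (C1qb, Apoe and Adgre1), and 1 of 8 endothelial markers (Plvap) was higher. Their part in the other calls was not tested. Without female hyperoxia edgeR called 6 genes in cDC2 and without male hyperoxia 3, against 123 and 96 without female and male room air, each with no covariate and a lone library in 1 arm. The cDC1 (73, 69, 69 and 78 cells) gave 1 call of 9071 genes (0.0110%), with 561 genes at an unadjusted p under 0.05, and 39 to 141 calls without 1 library at a time. It was Plac8, at 423, 520, 224 and 256 CPM (log2 change -0.95, SE 0.10, adjusted p = 0.0420), a gene with over 4 times the CPM in another lineage. In this cDC1 fit the 10 plasmacytoid markers had a median log2 change of -0.77, against 0.00 over all genes, and 0 were called. The part of plasmacytoid RNA in the Plac8 call was not tested.

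Targets of the glucocorticoid receptor were among the cDC2 genes called higher. Fkbp5, a co-chaperone of that receptor (chr17:28399094-28517527, minus strand), was at 307 and 246 CPM in female and male room air and at 445 and 482 CPM in female and male hyperoxia. The hyperoxia libraries were above the room air ones, with a log2 change of 0.72 (SE 0.10) and adjusted p of 1.72e-09 by edgeR and 0.00515 by DESeq2. It was found in 95.0% to 95.8% of cDC2 in each library, and no cell held over 3.06% of a library's UMIs. Zbtb16, a transcription factor also known as PLZF, was at 42.4, 40.9, 86.3 and 80.9 CPM (0.99, SE 0.14, edgeR adjusted p = 2.25e-08, DESeq2 0.704). Klf9, another transcription factor, was at 38.0, 23.7, 73.5 and 69.0 CPM (1.15, SE 0.16, edgeR adjusted p = 1.67e-09, DESeq2 0.399). Zbtb16 and Klf9 were at over 4 times this class's CPM in another lineage (18.2 and 18.1 times), and the part of such RNA was not tested, while Fkbp5 was not (0.886 times). Ddit4, an inhibitor of mTORC1, was called by edgeR as well (0.51). In all, 4 of 13 targets tested were called higher in cDC2 and none lower, against 0.968% of all genes tested called higher, with a list median of 0.26 against 0.00 over all genes. Tsc22d3, Per1 and Sgk1, equally known targets, were at log2 changes of 0.21, 0.29 and 0.19 and were not called. In cDC1 none of the 13 was called, with a median of 0.66. Fkbp5 was there at 155, 111, 289 and 273 CPM (1.11, SE 0.13, adjusted p = 0.0584), and 0.0129 with each gene's highest cell left out. In the larger set as a whole Fkbp5 was at a log2 change of 0.82 and was not called by edgeR (adjusted p = 0.171), and 1 of 13 targets was (Zbtb16). In the authors' class alone Fkbp5 was not called (0.39, adjusted p = 1.00), while Zbtb16 (1.48) and Klf9 (1.44) were. The share of barcodes without a class among the cDC2 was higher in both hyperoxia libraries, and its part in these values was not tested.

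**Figure D5:**
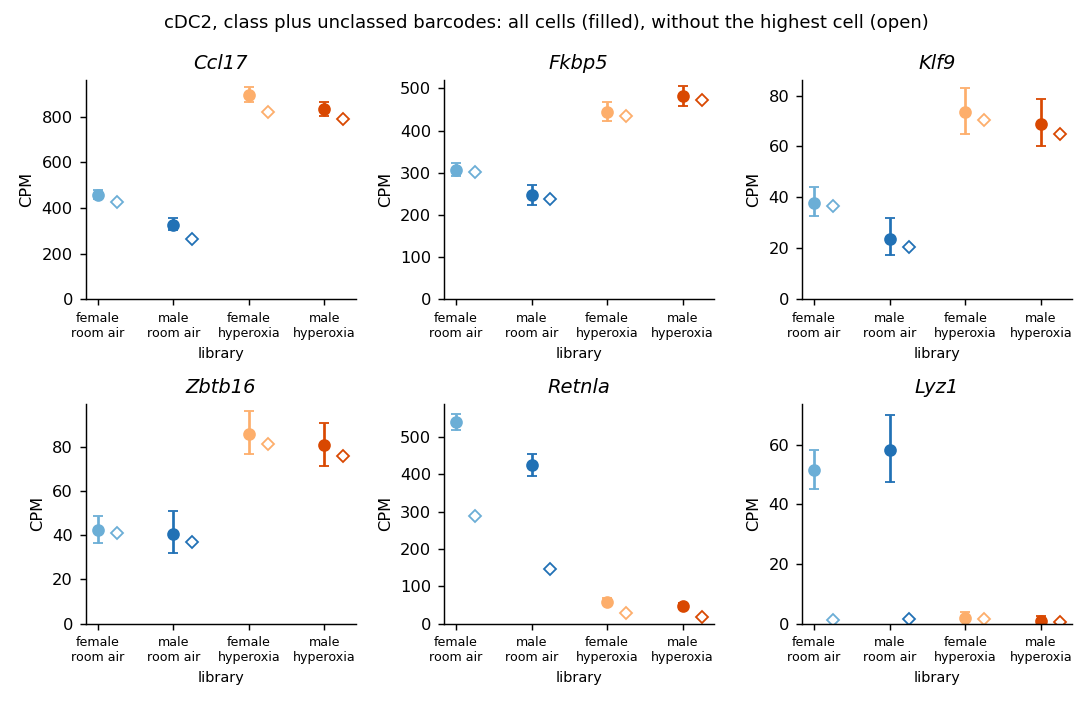
Levels (CPM with exact Poisson 95% intervals for counting error) of 6 genes in cDC2 of both sets by library, over all cells (filled) and without the cell that holds most UMIs of the gene (open). Ccl17, Fkbp5, Klf9 and Zbtb16 are higher in both hyperoxia libraries with and without that cell, while the room air levels of Lyz1 (51.4 and 58.1 CPM) rest on 1 cell in each library.

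Several genes called lower after hyperoxia had many of their UMIs in single cells. Retnla, a secreted protein of alternatively activated myeloid cells (chr16:48842551-48844461, plus strand), was at 525, 366, 73.1 and 10.8 CPM in the class and at 388, 222, 38.3 and 29.3 CPM with the barcodes without a class. Both room air libraries were above both hyperoxia libraries, and the log2 changes were -3.19 (SE 0.34, adjusted p = 6.09e-07) and -3.15 (SE 0.13, adjusted p = 1.16e-04). It was found in 5.84%, 4.19%, 3.52% and 3.23% of the cells of the larger set, and 1 cell held 46.4% to 65.3% of a library's UMIs. Without that cell the change in cDC2 was still -3.22. Fn1, fibronectin, was at 104, 111, 29.5 and 17.6 CPM in cDC2 (log2 change -2.20, SE 0.15), and -1.86 without the highest cell. Lyz1, a lysozyme, was at 51.4, 58.1, 1.95 and 0.895 CPM in cDC2, but 1 cell held 98.0% and 97.2% of the room air UMIs, and without it the gene was too low to be tested. In female room air the same cell, which held 25692 UMIs, held more UMIs of Retnla, Lyz1 and Fn1 than any other cell of the larger set (46.4%, 87.55% and 48.4% of the library's UMIs), and it held 319 UMIs of monocyte markers beside 101 of cDC2 markers. Cxcl9, an interferon-gamma-induced chemokine called lower in the larger set (-4.00, SE 0.44, adjusted p = 0.0306), had 72.3% and 95.1% of its room air UMIs in 1 cell. Chil3, a chitinase-like protein of alveolar macrophages, was called higher in cDC2 (3.30, SE 0.16), at 20.2, 11.3, 220 and 86.9 CPM, and 1 cell held 51.1% and 43.6% of the hyperoxia UMIs. The part of macrophage or monocyte RNA in these calls was not tested.

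Some interferon-stimulated genes were called lower by edgeR in the cDC2 of both sets, whose share of barcodes without a class differed between treatments. Of 27 tested, 7 were called lower, among them Ifit2, Isg15, Oasl2, Ifi27l2a, Rtp4 and Ifitm3, and none higher, against 0.526% of all genes tested called lower, and the median log2 change was -0.60 against 0.00 over all genes. Isg15, a ubiquitin-like protein, was at 29.5 and 18.8 CPM in room air and 10.6 and 9.85 CPM after hyperoxia (-1.27, SE 0.26, adjusted p = 3.08e-04). In finer clusters of the class (Leiden resolution 1.0), 10 cells led by Ifit1, Cxcl10, Ifit3, Oasl2, Ifit2 and Ifitm3 stood apart, and 8 of the 10 came from female room air. Their part in the calls was not tested. DESeq2 called none of the 7 in cDC2, and its adjusted p was 1.00 for Isg15. Without each gene's highest cell, Isg15 was at -0.79 and was no longer called by edgeR (adjusted p = 0.307). Ifi27l2a was called in the class as well, at 296, 439, 152 and 242 CPM (-0.97, SE 0.25, adjusted p = 0.0394), but not in the larger set by edgeR (-0.65, adjusted p = 0.177). Of the interferon-stimulated list, 0 of 31 were called in the larger set (median -0.39) and 0 of 20 in cDC1 (median -0.12). Over all genes 0.0343% were called lower in the larger set and 0.0110% were called in cDC1, so these counts are near the background.

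H2-Aa and Cd74 were at similar levels in the 4 libraries of the larger set. With the barcodes without a class, H2-Aa was at 7882, 7739, 7785 and 8062 CPM in female room air, male room air, female hyperoxia and male hyperoxia (log2 change 0.01, SE 0.08), and the groups overlapped. Cd74, the invariant chain, was at 23289, 22417, 23018 and 22925 CPM (-0.00, SE 0.07). Ciita was at 351, 237, 284 and 252 CPM (-0.12, SE 0.11). None of 12 class II genes was called there, in cDC1 (11 tested) or in cDC2, with a median of -0.02 in the larger set. So few genes were called over all genes there (0.0515% higher and 0.0343% lower in the larger set, 0.0110% in cDC1) that 0 calls in this or the following short lists is near the background and says nothing particular to them. In the class 1 of 12 was called, H2-Eb2 (3.35, adjusted p = 0.00925), which is among the genes that lead the cluster of mature cells. Of 12 costimulation genes, none was called in the larger set. Cd86, a ligand of CD28, was at 197, 153, 170 and 174 CPM (-0.03, SE 0.11), and Cd80, the other, at 54.5, 51.7, 57.1 and 50.8 CPM (0.02, SE 0.12). Of 28 transcription factors tested, none was called in the larger set. Irf8 was at 1656, 1464, 1544 and 1430 CPM in cDC1, and Irf4 at 100.2, 117, 88.5 and 86.3 CPM in cDC2. Both genes are on the lists that placed the cells, so these levels are a description with no test. Receptors for growth factors gave no call among 11. Flt3, which the marker rule used to admit barcodes, was at 199, 208, 200 and 215 CPM, given as a description.

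Females and males differed in 41 of 10378 genes in the class (0.395%, edgeR with treatment as covariate), 8 of them higher in females. Of the 41, 6 lie on the sex chromosomes and 23 had over 4 times the CPM in another lineage, against 1438 of all 10378. Among autosomal genes higher in females, Tcea3, a transcription elongation factor, was at 79.1 and 66.3 CPM in female room air and hyperoxia and at 29.2 and 21.5 CPM in the male libraries (log2 difference female minus male 1.46, SE 0.32, adjusted p = 0.0315). Kynu, an enzyme of the kynurenine pathway, was at 223 and 167 CPM in females and 113 and 32.3 CPM in males (1.32, SE 0.30, adjusted p = 0.0411). Erc2, a scaffold protein of the presynaptic active zone, was called too, but on 119 and 40 UMIs in the female libraries and 2 and 0 in the male ones, and the 0 in male hyperoxia allows up to 19.85 CPM (exact Poisson 95% limit), above the 14.2 CPM of female hyperoxia. The 3 chains of complement C1q, which macrophages make, were higher in males, with C1qa at 9.01 and 18.4 CPM in females and 64.9 and 290.5 CPM in males (-3.33, SE 0.30, adjusted p = 9.66e-08). The summed macrophage marker level was 844 and 754 CPM in the female libraries and 907 and 2292 CPM in the male ones, and its part was not tested. In male hyperoxia 1 cell held 173 UMIs of these markers, 127 of them Chil3. S100a8 and S100a9, neutrophil genes, were called higher in females, and the summed neutrophil marker level was 596 CPM in female room air against 30.9 to 102 CPM in the other 3 libraries. Without 1 library at a time edgeR called 0 to 3 genes, and with the barcodes without a class it called 7. None of these 4 genes was called in that larger set, where the log2 difference was 0.58 for Tcea3 (adjusted p = 0.778), 0.48 for Kynu (0.572), 1.05 for Erc2 (0.807) and -2.03 for C1qa (0.330). DESeq2 in the class did not call Tcea3, Kynu or Erc2 (adjusted p = 1.00, 0.284 and 0.282).

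The hyperoxia response of the class was set against the mean response of 3 other immune classes. They were the most like it in room air among those with at least 50 cells in every day 21 library. These were classical monocytes, nonclassical monocytes and alveolar macrophages (Spearman correlations over 32285 genes of 0.921, 0.917 and 0.908). Interstitial macrophages 2, the next class for H2-Aa in room air, was not among the classes ranked. The difference was called for 74 of 12947 genes (0.572%), 40 of them with a larger log2 change in dendritic cells. Of the 74, 26 had over 4 times the CPM in another lineage, against 2970 of all 12947. At least 4-fold higher in mature cells than in other members were 37 of the 74. That share was not counted over all genes tested, and most mature members came from the hyperoxia libraries. The 37 is therefore a description. Without female room air 22 genes were called, without female hyperoxia 160 and without male hyperoxia 115. Rgs1, a regulator of G protein signalling, was at 20.5 and 26.9 CPM in room air and 153 and 404 CPM after hyperoxia in the class, and its change exceeded that of the other classes by 2.99 on the log2 scale (SE 0.28, adjusted p = 4.05e-05). Gadd45b (2.89), Zc3h12c (2.51), Lima1 (2.40) and Tspan3 (1.97) followed. Each of these 5 was also called in the class and none in the larger set. Among the lower ones, Rtn1, a reticulon of the endoplasmic reticulum, was at 187, 178, 183 and 96.8 CPM in the class, with a difference of -1.98 (SE 0.29, adjusted p = 0.00385). Its levels in the female libraries were thus close, and the male hyperoxia level rests on 18 UMIs. The levels in the other classes are not given here. A negative difference therefore need not be a fall in dendritic cells. The larger set was not entered in this comparison.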

How the data were processed

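Single-cell RNA libraries of 6 lung pools were deposited as UMI counts per gene and barcode, with a table of cell classes. The authors' counts were made with Cell Ranger 6.0.0 (day 1) and 7.0.1 (day 21), per the file headers, and the submitters' processing notes name Cell Ranger 6.0.0, Seurat 4.1.1 and mm10. The authors' classes were used as deposited, and their cell filters are not given in the sources used here. The day 21 libraries held 122173482 to 137510028 UMIs, and all intervals cover counting error only.

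Raw counts of the members were summed per library and tested with edgeR 4.0.16 (quasi-likelihood, TMM scaling, Benjamini-Hochberg threshold 0.05), with sex or treatment as covariate. DESeq2 1.42.0 was an alternative. The scripts were tested on simulated data. Doublets were called in the day 21 libraries with Scrublet in scanpy 1.11.5. They were kept in the class, left out in an alternative and not admitted by the marker rule. Clusters used 2000 variable genes, 20 components and Leiden resolution 0.5. Gene positions are from GENCODE M21 (GRCm38). The genes named are those with the largest changes among called genes, or nearest to the threshold where too few were called, with at least 20 UMIs in each library of the higher side, the same direction across both sexes or treatments and no more than 4 times the CPM in another lineage, beside members of the lists. The members and gene lists were chosen with earlier results of these data known. The partition of cells by marker UMIs, and the analyses with barcodes without a class, of subsets in that larger set, and without mature or highest cells were added after seeing the data. Replicates are pools that differ in sex. With 1 residual degree of freedom, edgeR takes the spread of a gene largely from other genes. Its p-values thus do not measure the spread of that gene between pools or within a group.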

Additional observations from a re-analysis of the deposited data

Results flagged for a closer look

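The deposited matrices held barcodes without a class that met the dendritic marker rule: 74 in female room air, 60 in male room air, 113 in female hyperoxia and 265 in male hyperoxia. They lie outside the authors' annotation.

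With these barcodes counted in, hyperoxia minus room air gave -0.566 points of dendritic share for the female libraries, against +0.632 for the male ones. The sexes thus moved in opposite directions, with 1 library a group, and the difference between the sexes was not tested.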

How the results depend on the processing

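No paired analysis was possible because each group has 1 library and the groups share fewer than 2 replicate numbers. The hyperoxia fits pair the pools only by sex, through the covariate. For hyperoxia against room air in the class (205 genes called), the count was 108 with DESeq2, 11 with no covariate, 56 without doublets, 22 with equal numbers of cells, 67 without mature cells, 10 with barcodes without a class, 90 without the highest cell of each gene, 315 without Xist-free cells and 0 to 327 without 1 library. With the barcodes without a class (10 called) it was 6 with no covariate, 23 without mature cells and 18 to 157 without 1 library. For sex (41 called) it was 17 with DESeq2, 102 with upper-quartile scaling, 87 with no filter, 3 with no covariate, 9 without doublets, 16 without mature cells, 7 with barcodes without a class and 0 to 3 without 1 library. In cDC1 (1 called) it was 12 without doublets, 5 without the highest cells and 39 to 141 without 1 library. In cDC2 (162 called) it was 7 with DESeq2, 102 without the highest cells and 3 to 123 without 1 library. Against the alike classes (74 called) it was 120 with DESeq2, 354 with no filter and 22 to 160 without 1 library. The share difference in females was -0.566 points with barcodes without a class and -0.440 with the marker rule in place of the class. In males it was -2.07 among immune cells and -0.909 over every barcode, and it turned to +0.632 with barcodes without a class, +0.551 with them over every barcode and +0.698 with the marker rule. The cDC1 share difference in females was +14.2 points by clusters and +10.4 by the marker partition in the class. It was 3.25 by the marker partition with barcodes without a class. Il12b turned to a log2 change of -0.28 with barcodes without a class, and Scgb1a1 ranged from -2.01 to 0.16 without 1 library. The cause of these shifts was not tested. Fits within subtypes of the class alone and at matched subtype numbers were not run, since no subtype reached 50 (or 20) cells in every library. With 1 residual degree of freedom and 14 members in male hyperoxia, counts of calls are unstable.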
